A study of Mus musculus with 23 samples.

Results

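The 10 genes described here encode enzymes that defend cells against reactive oxygen species. They are Hmox1, Nqo1, Gclm, Srxn1, Txnrd1, Prdx1, Gpx1, Cat, Sod1 and Sod2. They were taken by symbol from a table of 23284 genes, and each symbol had its own row. RNA-seq libraries were made from 16 individual mouse mesenchymal stem cells (mMSC1 to mMSC16), from 5 individual HL-1 cardiomyocytes (HL1cm1 to HL1cm5), and from 1 population control (PC) of each type, mMSC-PC and HL1cm-PC, which held a bulk of cells. The mMSCs were purchased, came from the bone marrow of 3-month-old male C57BL mice (C57BL/6J in the labels), and were used at passages 6 to 11 after growth in α-MEM on gelatin. HL-1 cardiomyocytes are a mouse atrial muscle line that still divides. They were used at passages 70 to 85 after growth in Claycomb medium with norepinephrine. The study compared no drug and describes no altered allele in these cells, but its paper does not describe how the HL-1 line was derived. Both types were trypsinised and shared 1 Fluidigm C1 capture device, in which only the HL1cm carried a green dye, CellTracker Green CMFDA, which binds to thiols inside the cell. Medium, passage, dye and the derivation of the cells therefore differ along with cell type and cannot be told apart from it.

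Superoxide, a by-product of respiration and of oxidases, is turned into hydrogen peroxide by superoxide dismutases. Catalase, glutathione peroxidases and peroxiredoxins then remove the peroxide. The last 2 families draw their reducing power from glutathione and thioredoxin, and so in the end from NADPH. The transcription factor NRF2, encoded by Nfe2l2, is held down by KEAP1 and is released by oxidants and by compounds that react with thiols. NRF2 then binds a short DNA sequence, the antioxidant response element, near genes such as Hmox1, Nqo1, Gclm, Srxn1, Txnrd1 and Prdx1. In MSCs this defence is studied because few transplanted cells survive in injured, oxidised tissue.

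The core letters of the antioxidant response element, TGACNNNGC on either strand, were searched from 250 bases before to 50 bases after each gene start in RefSeq windows of GRCm38.p6, which is the assembly called mm10. The core was found in 3781 of 27025 genes (13.99%) and in 5 of the 9 member genes with a window. A match describes letters only and does not show that a factor binds there. The 5 matches are shown because they allow the genes to be compared by their letters near the start. All 5 genes lie on the plus strand, each sequence is read along that strand, and the capitals mark the core, which in every case was found in its reverse complement form, GCNNNGTCA.
Gclm, chr3:122245413-122245441: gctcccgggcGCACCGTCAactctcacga
Srxn1, chr2:152105542-152105570: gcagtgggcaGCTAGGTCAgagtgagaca
Txnrd1, chr10:82859104-82859132: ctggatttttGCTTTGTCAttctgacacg
Prdx1, chr4:116685456-116685484: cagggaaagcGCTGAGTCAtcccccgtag
Sod1, chr16:90220696-90220724: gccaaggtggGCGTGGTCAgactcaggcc
Counted from the RefSeq start of the window, the core began 134 bases before it in Gclm, 133 in Prdx1, 92 in Txnrd1 and 56 in Sod1. In Srxn1 it began 28 bases after it. In Prdx1 it overlapped the letters TGANTCA, the site of AP-1 factors. Txnrd1 had 3 windows, 1 of which held the core. This match lies inside the gene as placed by GENCODE M21 (chr10:82833951-82897712), so its 92 bases are counted from an internal start. The letters were not in the windows of Nqo1, Sod2, Cat and Gpx1, and bases outside the windows were not searched. Hmox1 had no window and was not searched.

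The values are FPKM as deposited, which are fragment numbers scaled by the exon length of a gene and by the mapped fragments of a library. The scaling by length is meant to let levels be set side by side between genes. A high FPKM of a short gene need not mean many fragments, so orders between genes are those of FPKM only. Read counts are not part of the table used here, and the read totals that the study lists by cell were not used here, so the depth behind a value is not given. Single mMSCs had 5178 to 7241 genes at 1 FPKM or more (median 6869.5) and single HL1cm 6428 to 7010. The fewest were in mMSC9 and mMSC15, and the population controls had 9625 and 9881. Genes of microRNAs and small nucleolar RNAs held 4.68 to 75.0% of the summed FPKM in single mMSCs and 2.16 to 76.2% in HL1cm, but 0.199% in mMSC-PC and 2.40% in HL1cm-PC. Of 895 genes with a median of 100 FPKM or more over the mMSCs, 57 (6.37%) were listed at 0 in at least 1 of them. A value of 0 is therefore given as listed and not as absence of the transcript. The cell types carried their markers. The 9 cardiomyocyte genes summed to 32778 to 59969 FPKM in HL1cm and 0 to 65.4 FPKM in mMSCs, and the 8 mesenchymal genes to 754 to 1594 and 2961 to 7423 FPKM. Of 10 macrophage genes, which were examined because macrophages are rich in Hmox1, Cd14 was above 0 in 15 mMSCs (up to 337 FPKM) and Csf1r in 8, with summed levels of 3.10 to 369 FPKM in mMSCs and 0 to 1.10 FPKM in HL1cm. Cd68 was above 0 in 1 mMSC (48.1 FPKM), Fcer1g in 1 (9.79 FPKM) and Itgam in 2 (up to 0.812 FPKM), and Ptprc, Lyz2, Aif1, C1qa and Tyrobp were at 0 in all single cells. Erythroid genes summed to at most 2.42 FPKM and endothelial genes to at most 13.8 FPKM in any single cell.

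No culture or animal is named for single cells, so the cells of a type count as 1 sample and no test was made between types. Differences are given as the mean log2 FPKM over 16 mMSCs minus the mean over 5 HL1cm, with values under 1 FPKM set to 1, the detection limit used in the study. SDs are spreads between cells. All 10 genes passed the filter of 1 FPKM in at least 2 cells of a type, as did 11550 genes of the table. On this scale 4 members (Hmox1, Cat, Srxn1 and Txnrd1) were at least 2-fold higher in mMSCs, where 22.0% of the genes kept were. Another 2, Sod1 and Sod2, were at least 2-fold higher in HL1cm, where 22.1% of the genes kept were. The other 4 differed by less than 2-fold. Only for Sod1 and Sod2 did the single cells of the types not overlap. Every HL1cm lay above every mMSC, as it did in 1.82% of the genes kept. No member had every mMSC above every HL1cm, against 2.24% of the genes kept. The median difference over the members was 0.65, and 0.12 over all genes kept.

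**Figure D1:**
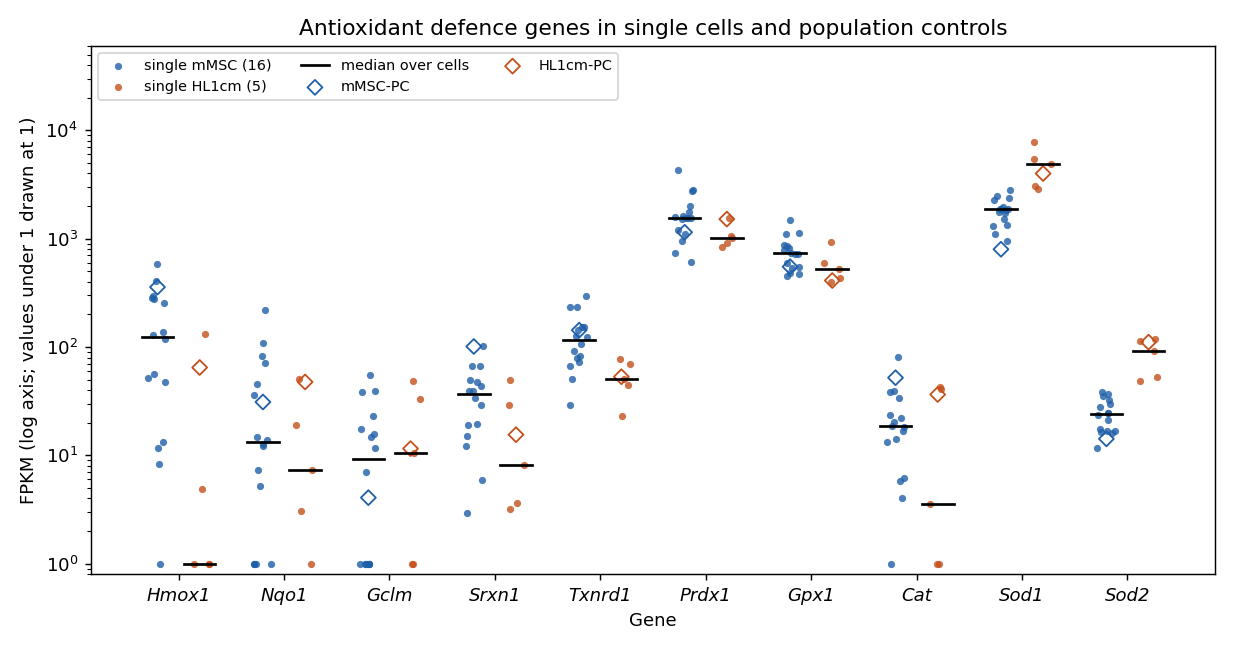
FPKM of each gene on a log axis, with values under 1 drawn at 1. Blue points are the 16 single mMSCs, orange points the 5 single HL1cm, bars the medians over cells, and open diamonds the population control of each type. In these deposited values, Sod1 and Sod2 are the only genes whose points do not overlap between the types (under TPM or Gapdh scaling they overlap), and the points of Hmox1 run from 0 to 585 FPKM in mMSCs.

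Sod1 encodes the copper and zinc superoxide dismutase of the cytosol (chr16:90220754-90226329, plus strand, GENCODE M21 on mm10). Sod1 was the highest of the 10 genes by median in both cell types. Over the mMSCs it was 960 FPKM in the lowest cell (mMSC14), 1864 in the median and 2784 in the highest (mMSC2). The HL1cm had 4912, 3081, 7731, 5396 and 2852 FPKM in cells 1 to 5. The lowest HL1cm lay just above the highest mMSC. The mMSCs averaged 10.77 ± 0.42 on the log2 FPKM scale (SD, n = 16 cells), whereas the HL1cm averaged 12.13 ± 0.60 (SD, n = 5 cells). The difference of -1.36 is 2.56-fold. It exceeded the SD between cells of either type.

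Sod2 encodes the manganese superoxide dismutase of mitochondria (chr17:13006846-13040063, plus strand). Its level was far below that of Sod1 in each library. The mMSCs ran from 11.7 FPKM (mMSC8) through a median of 24.1 to 38.5 FPKM (mMSC1). The HL1cm had 114, 91.0, 52.4, 119 and 48.1 FPKM. Here too the lowest HL1cm exceeded the highest mMSC. Mean log2 FPKM was 4.53 ± 0.51 (SD, n = 16 cells) against 6.31 ± 0.62 (SD, n = 5 cells), a difference of -1.78, or 3.43-fold. Both dismutases remained at least 2-fold higher in HL1cm in every alternative computed. The separation of the cells was lost under 2 scalings. When values were divided by their sum in each library (TPM), 3 HL1cm stayed above every mMSC for Sod1 and 2 for Sod2. When they were divided by Gapdh, 3 and 4 HL1cm did. All 5 HL1cm lay above all 16 mMSCs for both genes under median ratio scaling. The same held with small RNA genes left out of the sum, a setting chosen after seeing the data.

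The 2 dismutases did not keep a fixed ratio from cell to cell. Sod1 FPKM over Sod2 FPKM ran from 39.3 to 158 in mMSCs (median 74.6) and from 33.9 to 147 in HL1cm (median 45.2). The ranges overlapped, and the top of the HL1cm range was set by HL1cm3 alone (7731 FPKM of Sod1 and 52.4 FPKM of Sod2). The ratio is free of library scaling, and it was 56.2 in mMSC-PC and 36.0 in HL1cm-PC.

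**Figure D2:**
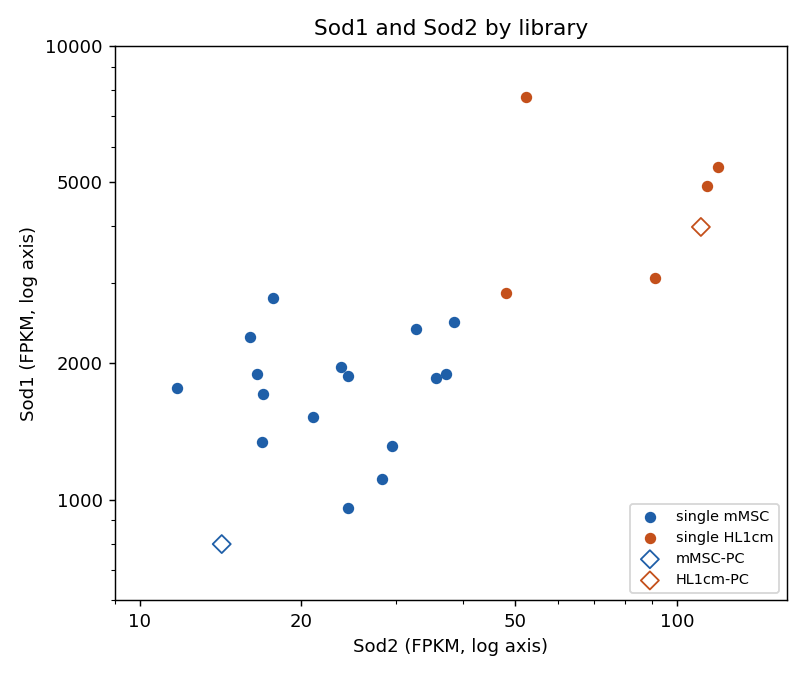
Sod1 against Sod2, both in FPKM on log axes, with 1 point a library. The 16 mMSCs (blue) lie at or under 2784 FPKM for Sod1 and 38.5 FPKM for Sod2, the 5 HL1cm (orange) at or over 2852 and 48.1 FPKM, and the open diamonds are the population controls; under TPM or Gapdh scaling the groups overlap.

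Hmox1 encodes heme oxygenase 1, which breaks heme down to biliverdin, iron and carbon monoxide (chr8:75093621-75100589, plus strand). It spread widely between mMSCs. Hmox1 was above 0 in 15 of 16 mMSCs (93.8%, exact binomial interval 69.8 to 99.8%, counting error only), with a median of 124 FPKM and a highest value of 585 FPKM in mMSC10. Next came mMSC14 with 408 FPKM, while mMSC16, mMSC15 and mMSC9 had 8.28, 11.8 and 13.3 FPKM and mMSC1 was listed at 0. The single HL1cm divided sharply. HL1cm2 had 131 FPKM and HL1cm3 had 4.90 FPKM, whereas cells 1, 4 and 5 were listed at 0 (2 of 5 above 0, 40% with an interval of 5.27 to 85.3%). Thus 1 HL1cm exceeded the mMSC median, and 7 mMSCs exceeded that HL1cm. The difference in mean log2 FPKM was 4.31. Its size depends on the value given to cells listed at 0, and it ran from 1.92 to 6.95 over the alternatives, at least 2-fold in each of the 30. Without HL1cm2 it was 5.60. Cd14 and Csf1r were also higher in mMSCs, while 5 of the 10 macrophage genes were at 0 in every cell, and their part in the level of Hmox1 was not tested.

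Srxn1 encodes sulfiredoxin, which repairs peroxiredoxins that peroxide has overoxidised (chr2:152105516-152111376, plus strand). It was above 0 in all 21 single cells. Its level ran from 2.97 FPKM (mMSC1) through a median of 36.6 to 102 FPKM (mMSC6) in mMSCs, and the HL1cm had 29.0, 49.4, 8.23, 3.67 and 3.19 FPKM. The types overlapped over nearly the whole range, with 4 mMSCs above the highest HL1cm and 1 below the lowest. The difference in mean log2 FPKM was 1.35, or 2.55-fold, which was about as large as the SD between mMSCs (1.34, n = 16 cells) and smaller than that between HL1cm (1.77, n = 5 cells).

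Txnrd1 encodes the cytosolic thioredoxin reductase, a selenoprotein that passes electrons from NADPH to thioredoxin (chr10:82833951-82897712, plus strand). The mMSCs ran from 29.0 FPKM (mMSC7) through a median of 115 to 298 FPKM (mMSC8). The HL1cm had 69.9, 51.0, 78.1, 23.2 and 44.3 FPKM. No HL1cm reached the mMSC median, and 12 of 16 mMSCs lay above the highest HL1cm. The difference was 1.15, or 2.22-fold, with SDs of 0.87 (n = 16 cells) and 0.69 (n = 5 cells), and was 0.86 under median ratio scaling. HL1cm4, the lowest cell for Txnrd1 and listed at 0 for Hmox1, Gclm and Cat, carried part of these differences. Without it, the differences were 0.88 for Txnrd1, 0.96 for Srxn1 and 0.76 for Cat, so that 1 member, Hmox1, was at least 2-fold higher in mMSCs. Srxn1 was at 0.91 without HL1cm5 and Cat at 0.76 without HL1cm3.

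Nqo1 encodes a quinone reductase that uses NADPH or NADH (chr8:107388225-107403206, minus strand). It was above 0 in 12 of 16 mMSCs (75.0%, interval 47.6 to 92.7%), with a median of 13.2 FPKM. mMSC8 had 220 FPKM and mMSC9 had 109 FPKM, and mMSC1, mMSC4, mMSC7 and mMSC12 were listed at 0. The HL1cm had 19.0, 0, 50.4, 3.06 and 7.32 FPKM. The difference of 0.74 was under 2-fold, and the ranges overlapped. It rested on single HL1cm, at 0.02 without HL1cm2, 1.08 without HL1cm1 and 1.44 without HL1cm3, and it passed 2-fold under TPM (1.18) and with cells listed at 0 left out (1.23).

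Gclm encodes the modifier subunit of glutamate-cysteine ligase, which makes the first step of glutathione synthesis (chr3:122245557-122270732, plus strand). It was the gene most often listed at 0, with 9 of 16 mMSCs above it (56.2%, interval 29.9 to 80.2%), a median of 9.34 FPKM and a highest value of 55.5 FPKM in mMSC10. The HL1cm had 32.8, 0, 48.6, 0 and 10.6 FPKM. The difference was -0.36 as deposited, 0.13 under TPM, 0.20 without HL1cm1, 0.34 without HL1cm3 and -1.06 without HL1cm2 or HL1cm4, so no direction is given.

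Prdx1 encodes peroxiredoxin 1, an abundant peroxidase that thioredoxin reduces (chr4:116685544-116700822, plus strand). The mMSCs ran from 605 FPKM (mMSC15) through a median of 1550 to 4261 FPKM (mMSC8). The HL1cm had 1534, 1020, 905, 1048 and 833 FPKM. No HL1cm reached the mMSC median and 10 mMSCs exceeded the highest HL1cm, but 2 mMSCs lay below the lowest. The difference was 0.55, or 1.47-fold, and was smaller than the SD between mMSCs (0.71, n = 16 cells).

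Gpx1 encodes the main cytosolic glutathione peroxidase, also a selenoprotein (chr9:108338903-108340343, plus strand). Its level was the most alike between the types of the genes found in all cells. The mMSCs ran from 452 FPKM (mMSC2) through a median of 735 to 1471 FPKM (mMSC13), and the HL1cm had 394, 521, 932, 436 and 602 FPKM. The difference was 0.41, or 1.33-fold, within an SD of 0.49 in each type (n = 16 and n = 5 cells).

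Cat encodes catalase, the peroxisomal enzyme that splits hydrogen peroxide (chr2:103453849-103485160, minus strand). It was above 0 in 15 of 16 mMSCs, with mMSC4 listed at 0, a median of 18.6 FPKM and a highest value of 81.6 FPKM in mMSC8. The HL1cm had 3.55, 43.0, 0, 0 and 41.3 FPKM. The HL1cm thus divided into 2 cells above the mMSC median and 3 cells at or near 0. The difference of 1.39 came from the cells listed at 0. With such cells left out it was -0.03, and the 2-fold call was lost.

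**Figure D3:**
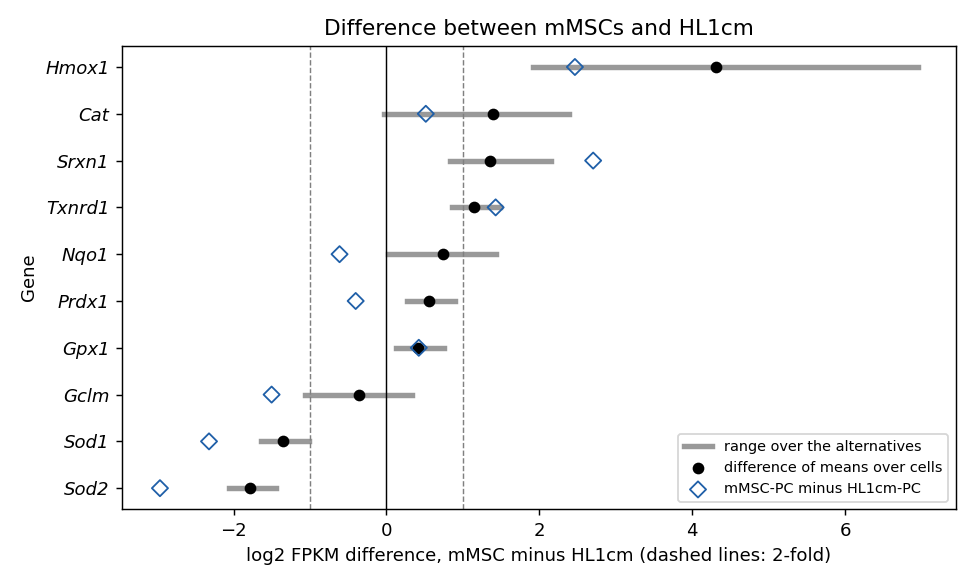
Difference in log2 FPKM between mMSCs and HL1cm for each gene. Black points are the difference of means over single cells (positive is higher in mMSCs), grey bars its range over 30 alternatives, open diamonds mMSC-PC minus HL1cm-PC, and dashed lines mark 2-fold. Hmox1, Sod1 and Sod2 stay beyond 2-fold over the whole bar, while the bars of Cat (-0.03 to 2.39) and Gclm (-1.06 to 0.34) cross 0.

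The order of the levels was alike at the top of both types. In mMSCs the medians fell from Sod1 through Prdx1, Gpx1, Hmox1, Txnrd1, Srxn1, Sod2, Cat and Nqo1 to Gclm. Most neighbours in this order were not separated cell by cell. Sod1 exceeded Prdx1 in 10 of 16 mMSCs, Prdx1 exceeded Gpx1 in 12, and Hmox1 exceeded Txnrd1 in 7. The clear steps were from Gpx1 to Hmox1, which held in all 16 mMSCs, and from Txnrd1 to Srxn1, which held in 15. Lower down, Srxn1 exceeded Sod2 in 11 mMSCs, Sod2 exceeded Cat in 9, Cat exceeded Nqo1 in 7 and Nqo1 exceeded Gclm in 8. In HL1cm the order began with Sod1, above Prdx1 in all 5 cells, then Prdx1, above Gpx1 in 4, and Gpx1, above Sod2 in all 5. Sod2 came 4th in HL1cm, above Txnrd1 in 4 of 5 cells, whereas it came 7th in mMSCs and exceeded Txnrd1 in 1 of 16 cells. Hmox1 came 4th in mMSCs and last in HL1cm.

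The spread between the 16 mMSCs differed from gene to gene. Sod1, Gpx1, Sod2, Prdx1, Txnrd1 and Srxn1 were above 0 in every mMSC and also in every HL1cm. The SD of their log2 FPKM between mMSCs was 0.42, 0.49, 0.51, 0.71, 0.87 and 1.34 in this order. Their median SD was 0.61, against 0.89 over the 2299 genes of the table that were above 0 in all 16 mMSCs. Over all 10 members it was 1.11, against 1.38 over all genes kept. Zeros and low levels raise this SD.

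High levels of several genes met in single cells. mMSC8 had the highest Nqo1, Txnrd1, Prdx1 and Cat and the lowest Sod2 of the mMSCs, and 8 of its 10 values were above the gene's median. Small RNA genes held 67.6% of the summed FPKM of this cell. Under TPM it was highest for 1 gene (Nqo1), and under the other 3 scalings for the same 4. mMSC3 also had 8 of 10 values above the median but was highest for no gene. mMSC10 was highest for Hmox1 and Gclm. mMSC1 was at 0 for Hmox1, Nqo1 and Gclm and lowest for Srxn1, yet highest for Sod2, and small RNA genes held 75.0% of its sum. mMSC7 was above the median for 2 genes, one of which was Prdx1 at 2754 FPKM.

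The genes did not rise and fall together over the mMSCs. Among the 9 members above 0 in at least 12 mMSCs, the 36 pairs had a median Pearson r of 0.05 over 16 cells (log2 FPKM), from -0.42 to 0.48, with 22 pairs above 0. The highest values were 0.48 for Nqo1 with Srxn1, 0.46 for Txnrd1 with Gpx1 and 0.45 each for Txnrd1 with Sod1 and Nqo1 with Cat. These are descriptions over cells that share a chip, without a test. Even Prdx1 and Srxn1, substrate and repair enzyme, were highest in different cells, mMSC8 and mMSC6.

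**Figure D4:**
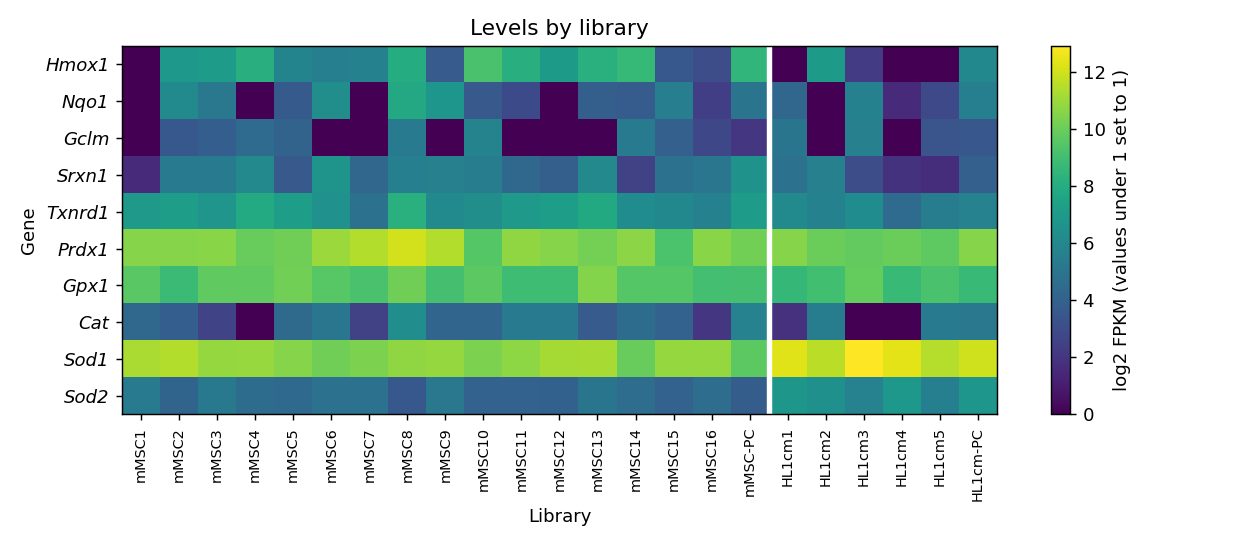
Log2 FPKM of the 10 genes (rows) in each library (columns), with values under 1 set to 1; the white line divides mMSCs from HL1cm, and the population control stands last in each block. Sod1, Prdx1 and Gpx1 are bright in every column, while Hmox1, Nqo1, Gclm and Cat have dark cells among both types.

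For each gene above 0 in all mMSCs, the genes closest in pattern were sought among 4980 genes above 0 in at least 12 mMSCs. Sod1 was closest to Slc31a1, a copper importer (r = 0.76), then to Usp22 (0.74) and Rnf169 (0.73). Prdx1 was closest to Akr1a1, an aldehyde reductase (0.84), Fabp5, a fatty acid carrier (0.84), and Anxa3 (0.81). Akr1a1 lies 33.9 kb from Prdx1 on chromosome 4, with no coding gene between them. Gpx1 was closest to Gnpda2 (0.81), Angel2 (0.77) and Aifm1, a mitochondrial oxidoreductase (0.73). Txnrd1 was closest to Papd4 (0.80), 5430411K18Rik (0.80) and Prpf18 (0.77), Srxn1 to 2410004N09Rik (0.79), Hax1 (0.76) and AA467197 (0.76), and Sod2 to 2610005L07Rik (0.76), Zfr (0.73) and Csnk2a1 (0.73). These are the 3 highest of 4980 values over 16 cells for each gene, so high values were picked.

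The population controls addressed whether the single cells span the bulk level. In a bulk of cells, fewer cells with a transcript and less RNA in each cell cannot be told apart. mMSC-PC lay within the range of the 16 mMSCs for 9 members and below it for Sod1, at 798 FPKM. Of the 10867 genes that reached 1 FPKM in 2 mMSCs or more, mMSC-PC was below all 16 for 2.12% and above all for 8.6%. HL1cm-PC lay within the range of the 5 HL1cm for all 10 members, whereas of 8244 genes kept by the same rule in HL1cm it was above the range for 29.0% and below it for 3.31%. mMSC-PC had 357 FPKM of Hmox1, 101 of Srxn1 and 52.1 of Cat, which was 2.13, 2.73 and 2.34 times the mean over mMSCs. For Sod1 and Gclm (4.07 FPKM) it was 0.439 and 0.293 times the mean. HL1cm-PC had 64.7 FPKM of Hmox1 although 3 of 5 single HL1cm were at 0, and 36.5 FPKM of Cat although 2 were at 0.

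Between the population controls, 1 library each and without a replicate, 6 of the 8 members with 1 direction in every alternative differed in the same direction as the single cells. Gclm and Cat, whose sign turned in an alternative, differed by -1.50 and 0.51. Sod1 (798 against 3990 FPKM) and Sod2 (14.2 against 111 FPKM) differed by -2.32 and -2.96 on the log2 scale (mMSC-PC minus HL1cm-PC). Hmox1 was higher by 2.47, Srxn1 (101 against 15.5 FPKM) by 2.70 and Txnrd1 (143 against 53.2 FPKM) by 1.43. Nqo1 (31.1 against 47.6 FPKM) and Prdx1 (1145 against 1515 FPKM) went the other way from the single cells, by -0.61 and -0.40.

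The wider redox network was described through 71 further genes found in the table, in 9 lists by role. Of these, 24 (33.8%) were at least 2-fold higher in mMSCs and 15 (21.1%) in HL1cm, against 22.0% and 22.1% of all genes kept, and their median difference was 0.27. Under the other scalings the counts ran from 22 to 28 and from 11 to 16. Among the 24 were 7 genes listed at 0 in every HL1cm, and among the 15 was 1 listed at 0 in every mMSC. No difference is given for these genes. The cells of the types did not overlap for 3 genes higher in mMSCs (Gsto1, Gpx8 and Ftl1) and 3 higher in HL1cm (Gstt1, Gpx3 and Idh2), 4.23% of the 71 each, against 2.24% and 1.82% of all genes kept, a filter that 67 of the 71 passed. The genes named below kept their direction under the 4 other scalings. Alternatives for cells listed at 0 were not computed for these genes. Between the population controls, Gstm1, Idh1, Ccs and Mt2 went the other way from the single cells. Idh1 had 25.0 FPKM in mMSC-PC against 40.2 FPKM in HL1cm-PC, and Mt2 had 143 against 23.9 FPKM.

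Of 9 NRF2 pathway regulators, 3 were at least 2-fold higher in mMSCs, 1 in HL1cm and 5 in neither. Nfe2l2, which encodes NRF2 itself, was above 0 in all mMSCs (51.3 to 265 FPKM, median 116) and ran from 0 to 120 FPKM in HL1cm (median 17.8), a difference of 3.38. Keap1 stood the other way, from 0 to 12.3 FPKM in mMSCs, where 7 of 16 were above 0, and from 2.40 to 22.0 FPKM in HL1cm, a difference of -1.93. Bach1, a repressor of Hmox1, was at or under 5.81 FPKM in mMSCs and 1.09 FPKM in HL1cm (difference 0.42). Mafg, a partner of NRF2, differed by 1.11 and was above 0 in 11 mMSCs and 2 HL1cm. Maff was above 0 in 7 mMSCs and listed at 0 in every HL1cm.

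Glutathione synthesis and recycling, with 9 genes, had 1 gene higher in each type and 7 under 2-fold. Gclc, the catalytic partner of Gclm, was above 0 in 15 mMSCs (median 10.2 FPKM) and in 2 of 5 HL1cm (up to 28.9 FPKM), a difference of 1.38. Glrx3, a glutaredoxin, differed by -1.11. All 10 glutathione transferases, which attach glutathione to reactive compounds, passed 2-fold, against 44.0% of the genes kept in either direction. Of them 7 were higher in mMSCs and 3 in HL1cm. Each of the 10 was listed at 0 in at least 1 single cell, which enters the mean as 1 FPKM. Several did not keep their direction between the population controls. Gsto1 ran from 66.1 to 801 FPKM in mMSCs but was listed at 0 in each HL1cm library, the population control included, and Mgst1 was above 0 in 9 mMSCs and listed at 0 in every HL1cm. Gstm1 differed by 2.99 in the single cells, but stood at 39.1 FPKM in mMSC-PC against 41.4 FPKM in HL1cm-PC. Gstt1 ran from 23.7 to 157 FPKM in HL1cm and reached 6.51 FPKM in mMSCs, where 2 of 16 were above 0 (difference -5.65).

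Among 9 other peroxidases, 2 were at least 2-fold higher in each type and 5 in neither. Gpx8, a peroxidase of the endoplasmic reticulum, ran from 220 to 1102 FPKM in mMSCs and was above 0 in 1 HL1cm, at 12.2 FPKM (difference 8.30). Gpx3, the secreted glutathione peroxidase, ran from 525 to 2782 FPKM in HL1cm and from 0 to 465 FPKM in mMSCs (difference -4.85). These 2 members of the Gpx family thus separated the cells in opposite directions, while Gpx1 did not separate them. Prdx5 differed by 2.87 and Gpx7 by -2.40. The thioredoxin system, with 8 genes, had 2 genes higher in each type. Msra, which repairs oxidised methionine, differed by 1.78 and Txnl1 by 1.06, while Txnip, which binds thioredoxin, differed by -1.64 and Sesn2 by -1.12. Msra was above 0 in 11 mMSCs and 2 HL1cm, Txnip in 7 and 4, and Sesn2 in 3 and 2. Cells listed at 0 enter these means as 1 FPKM.

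Of 7 genes of NADPH supply, 3 were higher in mMSCs and 1 in HL1cm. G6pdx and Pgd, enzymes of the pentose phosphate pathway, differed by 2.27 and 1.31, and Idh1, the cytosolic isocitrate dehydrogenase, by 2.12. G6pdx was above 0 in 16 mMSCs and 3 HL1cm, Pgd in 12 and 2, and Idh1 in 16 and 4. Idh2, its mitochondrial counterpart, ran from 91.1 to 379 FPKM in HL1cm and from 0 to 65.2 FPKM in mMSCs (difference -4.76). Of 6 genes for superoxide and copper, Ccs, the copper chaperone of SOD1, was higher in the single mMSCs by 1.31. It was above 0 in 4 of 5 HL1cm, and the medians were 47.5 FPKM in mMSCs and 37.3 FPKM in HL1cm. Between the population controls it was lower in mMSC-PC, at 53.0 against 99.6 FPKM, as was Sod1. Mt1, Park7 and Mt2 differed by -1.45, -1.27 and -1.06, and Mt2 was above 0 in 9 mMSCs and 4 HL1cm.

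Of 7 genes for heme and iron, 2 were higher in each type. The ferritin chains Ftl1 and Fth1, which store iron such as that freed by heme oxygenase, differed by 2.04 and 2.02. Ftl1 ran from 12265 to 31953 FPKM in mMSCs and from 2825 to 6813 FPKM in HL1cm, but the ferritin genes have processed pseudogenes, and how reads were shared with them was not tested. Blvrb, a biliverdin reductase, differed by -3.62. It was above 0 in 6 mMSCs (up to 311 FPKM) and ran from 11.4 to 213 FPKM in HL1cm, so the types overlapped. The size of this difference depends on the mMSCs listed at 0, which enter as 1 FPKM. Slc40a1, the iron exporter, was listed at 0 in every mMSC and above 0 in 2 HL1cm. Among genes of superoxide-producing oxidases, Nox4 and Cyba were above 0 in 10 and 6 mMSCs and listed at 0 in every HL1cm. Nox4 reached 26.6 FPKM and Cyba 280.3 FPKM.

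**Figure D5:**
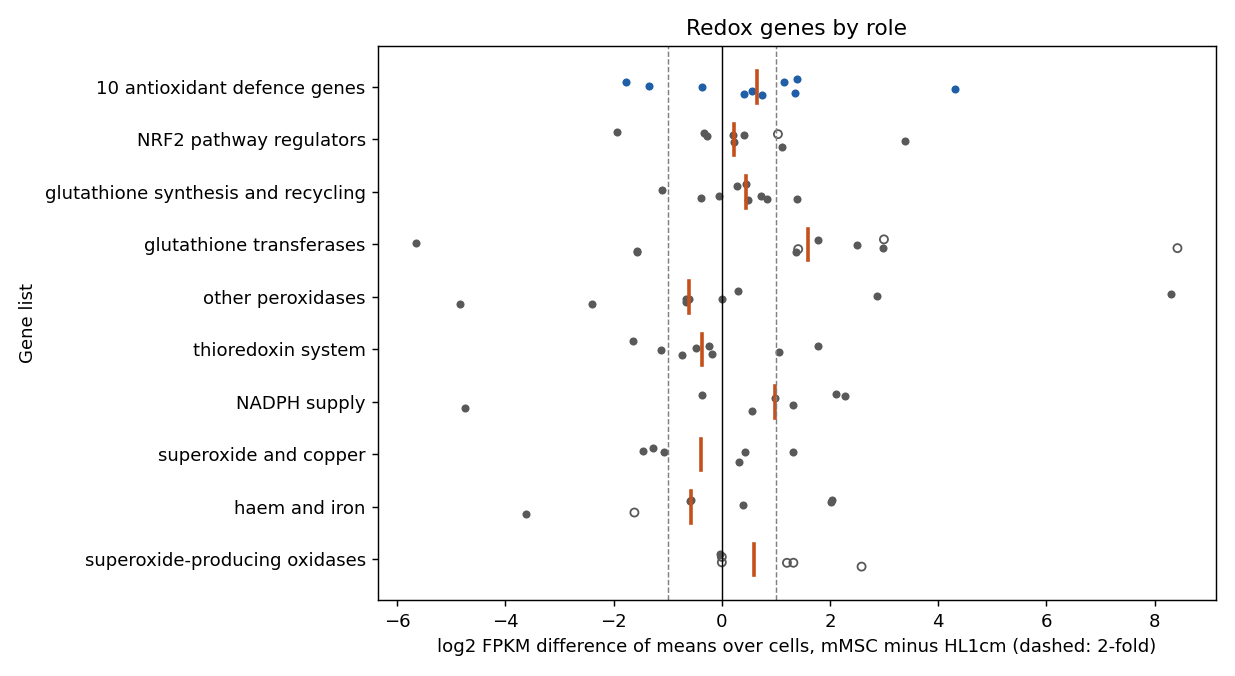
Mean log2 FPKM of mMSCs minus that of HL1cm (positive is higher in mMSCs), with 1 point a gene, for the 10 antioxidant defence genes (blue) and 9 lists of other redox genes (grey). Red bars are medians, dashed lines mark 2-fold, and open points are genes listed at 0 in every cell of a type, drawn as if at 1 FPKM and not to be read as a size; Gpx8 is the filled point at 8.30, and Gstt1 the point at -5.65.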

How the data were processed

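The deposited FPKM of 21 single cells and 2 population controls were analysed. By the submitters' processing notes, the authors used TopHat2 2.0.12, Cufflinks 2.2.1 and mm10. FPKM are divided by the fragments of the whole library, so rows that hold many fragments lower all others. A high FPKM of a short gene need not mean many fragments. Nothing in the labels ties single cells to separate cultures, so the spread is that between cells. Groups followed the sample titles. FPKM under 1 were set to 1, log2 values were averaged over cells, and a gene was kept if 2 single cells of a type or more reached 1 FPKM. A count model was not used because FPKM are not counts. The code was tested on simulated data. Tools were matplotlib 3.10.9, scipy 1.17.1, pandas 2.3.3, numpy 2.4.6 and Python 3.11.15. No library pair held identical values. The members and lists were chosen with earlier results of these data known. The text names all members, at most 4 genes a list with the largest differences past 2-fold, Nfe2l2, Keap1 and Bach1, and the 3 closest neighbours of each member above 0 in all mMSCs. Cd14, Csf1r and the separated cells were named after their values were seen. The values of 1 listed gene are not reported here. Alternatives covered the limit, the fold, zeros, medians, scalings, filters and leaving out cells. Gene positions come from GENCODE M21.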

Additional observations from a re-analysis of the deposited data

How the results depend on the processing

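Sod1 and Sod2 (higher in HL1cm) and Hmox1 (higher in mMSCs) differed by at least 2-fold in all 30 distinct alternatives computed. Srxn1 and Txnrd1 did so in 27. Of the 300 values for single genes, 296 kept their sign and 4 did not. These were Cat (-0.034 with cells listed at 0 left out) and Gclm (0.13 under TPM, 0.20 without HL1cm1 and 0.34 without HL1cm3). Hmox1 moved by more than the SD between cells when medians were used. The 4 members at least 2-fold higher in mMSCs became 2 with a limit of 10 FPKM, 1 at 4-fold, and from 1 (without HL1cm4) to 5 with 1 cell left out. The 2 higher in HL1cm became 0 at 4-fold. The 2 members whose cells did not overlap became 0 under TPM and 0 under Gapdh scaling. Members with the population control outside the single cells rose to 2 under TPM and 2 under median ratio scaling for mMSC-PC, and to 3 and 1 for HL1cm-PC. The median of all genes kept shifted by 0.16 under TPM, 0.15 under Gapdh scaling and -0.14 under median ratio scaling. Without mMSC9 and mMSC15, the counts were 4 and 2 as before. Gapdh scaling and the sum without small RNA genes were chosen after seeing the data. With no filter beyond 1 cell above 0, 18.3% and 18.9% of 13850 genes passed 2-fold in mMSCs and HL1cm, and 29.4% and 25.7% of 8282 genes with a filter of 10 FPKM. Without read counts, what a 0 means is limited. No paired analysis was possible because the results come from no test and the numbers shared by mMSCs and HL1cm only name cells.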
